A study of Homo sapiens with 8 samples.

Results

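The genes described here carry out DNA replication and the passage from G1 into S phase. They are 39 genes chosen by name, and all 39 were listed in both deposited tables, which hold 12700 genes for 143B, 12810 for HOS and 11807 in common. They were followed in 2 human osteosarcoma cell lines in which NAT10, the enzyme that acetylates cytidine in RNA, was targeted with a guide.

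In G1, the origin recognition complex with CDC6 and CDT1 loads the MCM helicase onto DNA, which licenses an origin. On entry into S phase MCM10, CDC45 and the GINS complex turn the loaded helicase into the active form, DNA polymerases copy the strands, and the RFC clamp loader places the PCNA ring that holds them on DNA. Many of these genes are targets of the E2F transcription factors, which are released from the retinoblastoma protein when cyclin-dependent kinases, among them those bound to cyclin E, are active.

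Polyadenylated RNA was sequenced on the BGISeq-500 platform from 4 groups of 2 libraries each, labelled 143B NC, 143B sgNAT10, HOS NC and HOS sgNAT10. NC is the control and sgNAT10 carries a guide against NAT10, and the series describes these cells as knockout cells. 143B was derived from HOS. The labels give no delivery method, clone, culture time or number of guides. They also leave out whether replicate libraries were grown as separate cultures, so p-values measure only the spread between these libraries, which may be technical. Of 10 osteoblast lineage markers, 5 could be tested in 143B and 7 in HOS, and no values of the defining markers SP7, BGLAP and IBSP were analysed here. The osteoblast markers with listed values numbered 6 in 143B and 7 in HOS. The summed level of these was 61.3 and 86.8 FPKM in 143B NC and 21.4 and 27.8 FPKM in 143B sgNAT10. In HOS it was 671 and 762 FPKM in NC and 884 and 812 FPKM in sgNAT10. All 5 tested in 143B fell, among them MSX2 (log2 -1.75) and SPP1 (log2 -1.86), and 4 of 7 rose in HOS, among them MSX2 (0.96) and SPP1 (2.02). RUNX2, the defining factor of the lineage, was at or below 1 FPKM in all 143B libraries and stood at 3.09 and 3.15 FPKM in HOS NC and at 8.79 and 9.36 FPKM in HOS sgNAT10. Of 14 blood, endothelial and epithelial markers, 2 could be tested in 143B and 3 in HOS, and LYZ rose in 143B from 0.69 and 1.3 to 7.33 and 6.89 FPKM. The part of these markers in the changes described below was not tested.

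Values are FPKM, fragments scaled to transcript length and to the mapped fragments of the library, so levels can be compared between genes within a library. Changes are differences of log2(FPKM + 1), sgNAT10 minus NC, tested with limma across all genes of a line with Benjamini-Hochberg adjusted p and a threshold of 0.05. A change on this scale understates that of genes with low values. NAT10 itself stood at 16.06 and 19.95 FPKM in 143B NC and at 9.05 and 7.19 FPKM in 143B sgNAT10, and at 14.86 and 16.22 FPKM in HOS NC and 21.13 and 19.14 FPKM in HOS sgNAT10. The HOS libraries labelled sgNAT10 therefore had more NAT10 RNA than their controls, and every HOS direction below is drawn between libraries as labelled. The HOS difference (log2 0.35, adjusted p = 0.00544) was -0.079 once each library was corrected for length and GC content of the transcripts, and lost its call under median-ratio and quantile scaling and without sgNAT10 replicate 1 (adjusted p from 1.47e-05 to 0.323 over the alternatives). The 143B fall (log2 -1.06, adjusted p = 0.0259) lost its call under median-ratio scaling and without NC replicate 2 or either sgNAT10 library (6.91e-07 to 0.219). Read depth is unknown. Replicates correlated more closely in HOS (Pearson r of log2 values 0.995 and 0.997) than in 143B (0.977 and 0.984). In 143B the level of a gene followed its transcript GC content more closely in the NC libraries (Spearman rho across genes 0.467 and 0.319) than in the sgNAT10 libraries (0.23 and 0.12).

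Promoters were matched by symbol in a RefSeq table of GRCh38.p14 for 33 of the 39 genes. The sequences of 5 are printed because MCM2, MCM6, GINS1 and UNG are among the genes whose changes in HOS held under all alternatives tried and PCNA, the sliding clamp, fell in 143B. Each runs from 170 bases before the annotated start to 30 bases after it, 5' to 3' on the strand of the gene. The windows are chr3:127598241-127598440 (plus strand) for MCM2, chr2:135876414-135876613 (minus strand) for MCM6, chr20:25407503-25407702 (plus strand) for GINS1, chr12:109097427-109097626 (plus strand) for UNG and chr20:5126593-5126792 (minus strand) for PCNA. Capitals mark matches, on either strand, to the E2F letters TTTCCCGC, TTTCGCGC, TTTGCCGC or TTTGGCGC.
MCM2: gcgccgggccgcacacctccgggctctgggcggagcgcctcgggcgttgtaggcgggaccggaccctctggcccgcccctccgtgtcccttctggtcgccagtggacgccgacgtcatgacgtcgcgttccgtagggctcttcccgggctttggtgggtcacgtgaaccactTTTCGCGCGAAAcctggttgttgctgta
MCM6: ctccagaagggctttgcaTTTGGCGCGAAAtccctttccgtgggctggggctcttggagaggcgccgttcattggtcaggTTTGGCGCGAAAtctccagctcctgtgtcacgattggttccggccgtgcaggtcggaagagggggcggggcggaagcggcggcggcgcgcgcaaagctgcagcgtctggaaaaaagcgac
GINS1: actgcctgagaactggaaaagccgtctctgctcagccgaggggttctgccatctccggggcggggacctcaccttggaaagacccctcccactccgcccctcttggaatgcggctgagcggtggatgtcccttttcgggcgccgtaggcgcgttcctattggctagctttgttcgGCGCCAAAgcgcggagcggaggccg
UNG: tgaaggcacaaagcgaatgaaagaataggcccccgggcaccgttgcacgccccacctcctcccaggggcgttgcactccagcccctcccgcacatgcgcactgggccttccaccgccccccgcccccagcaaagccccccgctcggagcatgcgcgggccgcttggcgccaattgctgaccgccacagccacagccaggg
PCNA: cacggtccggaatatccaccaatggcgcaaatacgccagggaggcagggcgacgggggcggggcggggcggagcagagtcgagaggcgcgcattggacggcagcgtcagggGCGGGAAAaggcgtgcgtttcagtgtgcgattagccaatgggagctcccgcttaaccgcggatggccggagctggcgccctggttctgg

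In MCM2 and in MCM6 a match on one strand overlaps a match on the other, as in TTTCGCGCGAAA, and MCM6 has this arrangement at 2 places. GINS1 and PCNA hold 1 match each, and UNG holds none of these letters in its window. Over 300 bases around the start, 16 of the 33 promoters (48.5%) hold at least 1 match, against 3.31% of 35116 promoters in the table. All 5 MCM helicase promoters in the table hold one, as do 2 of 3 licensing genes, 3 of 5 helicase activation genes, 2 of 4 polymerase genes and 2 of 6 clamp and clamp loader genes. None of the 4 promoters of RPA1, FEN1, CHAF1A and UNG does. The CHR letters TTTGAA, known from mitotic promoters, occur in 1 of 33 member promoters, in 17 of 25 promoters of a list of mitosis and G2/M genes, and in 15.2% of all promoters. CCAAT occurs in 66.7% of the member promoters and 34.6% of all. In 143B, 1 member with E2F letters rose and 4 fell of 16, and 1 rose and 0 fell of 17 without. In HOS, 4 rose and 4 fell of the 16, and 6 rose and 6 fell of the 17. Over all genes tested, 12.9% rose and 25.4% fell in 143B, and 45.5% and 23.0% in HOS. Members with the letters included calls of both signs in both lines, and a link between letters and changes was not tested.

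Control levels of the 39 genes spanned about the same range in both lines, with group means from 2.32 to 270.1 FPKM in 143B and from 3.31 to 256.4 FPKM in HOS. The tables were normalized separately, so levels are set side by side without a test. In 143B NC the highest was MCM7, a subunit of the helicase, at 294.64 and 245.49 FPKM, followed by MCM5 and MCM2. In HOS NC it was PCNA, at 260.22 and 252.48 FPKM, followed by MCM7 and RPA1. The lowest was CCNE2, cyclin E2, in 143B NC (1.91 and 2.73 FPKM) and the transcription factor E2F2 in HOS NC (3.19 and 3.44 FPKM). E2F1 stood at 81.8 and 77.68 FPKM in 143B NC and at 15.84 and 19.99 FPKM in HOS NC. Across genes, level followed transcript GC content in 143B NC (Spearman rho 0.467 and 0.319) and hardly in HOS NC (-0.0726 and 0.00231). Transcript GC was 62.48% for E2F1, 57.59% for MCM7 and 45.25% for PCNA. The part of GC content in these differences between lines was not tested. Replicates of 143B differed in a shared direction: NC replicate 2 exceeded NC replicate 1 in 32 of the 39 genes, with a median ratio of 1.43. In 143B sgNAT10 replicate 2 was the higher in 26 of 39, with a median ratio of 1.21. This was not particular to the members. The median over all listed genes was 4.925 and 7.215 FPKM in 143B NC and 4.22 and 5.13 FPKM in 143B sgNAT10. In HOS NC replicate 2 was the higher in 16 of 39 members, with a median ratio of 0.967. The medians over all listed genes there were 8.68 and 8.605 FPKM.

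**Figure D1:**
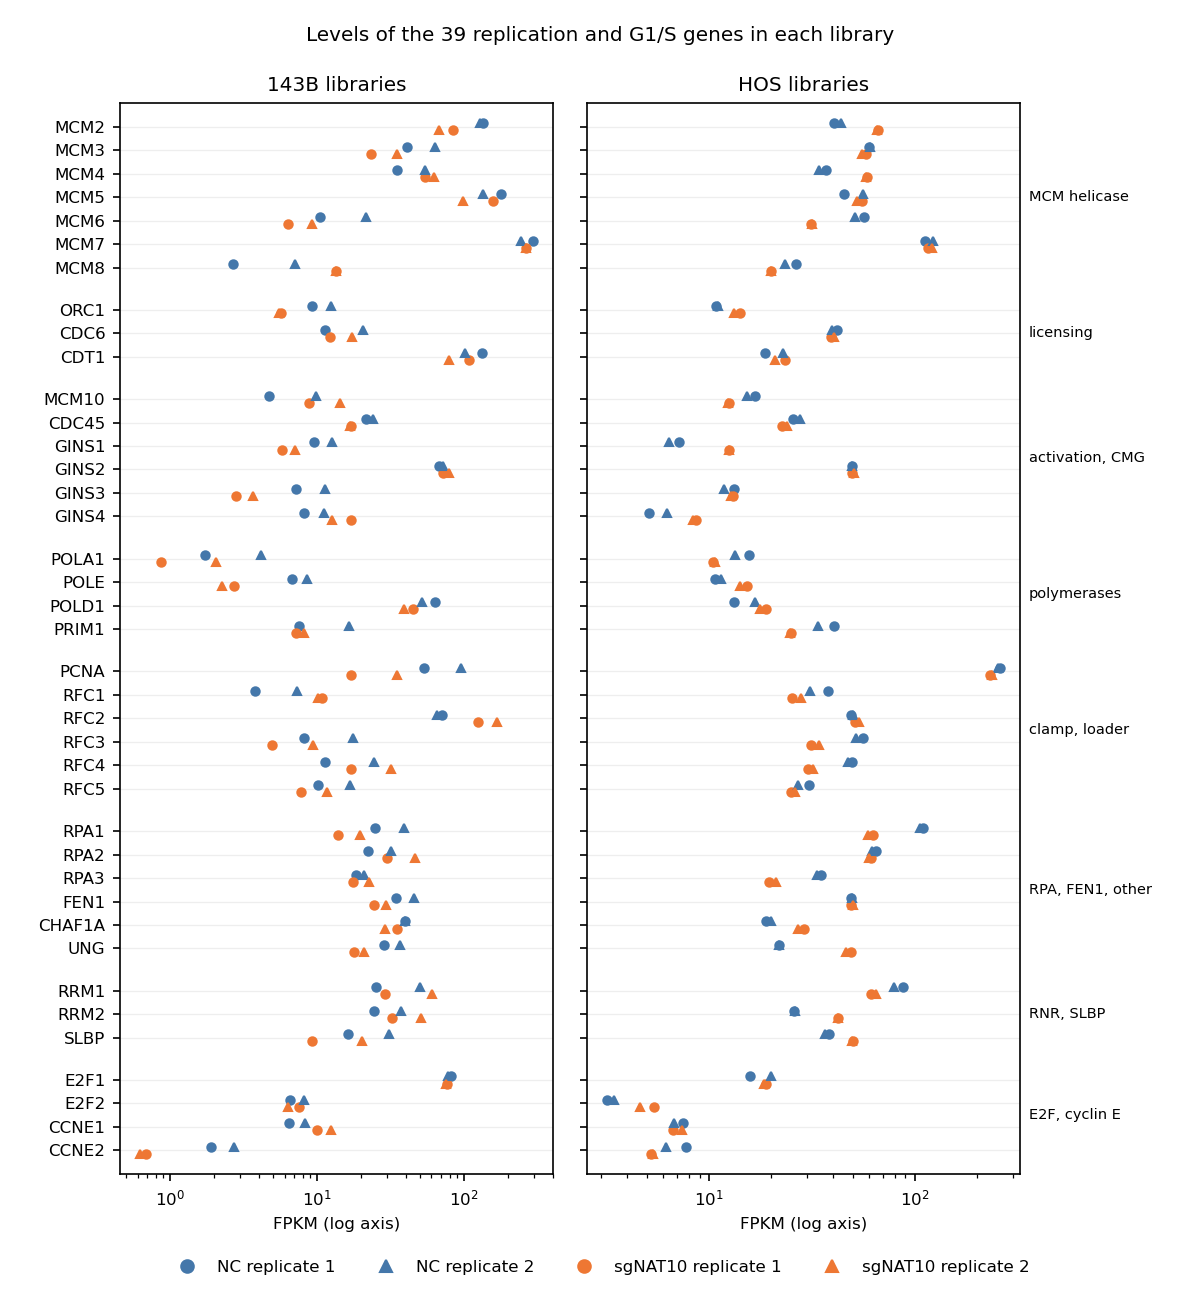
Level of each of the 39 genes in each of the 8 libraries, in FPKM on a log axis, with the role of the genes at the right. Circles and triangles are replicates 1 and 2, blue is NC and orange is sgNAT10; the axes of the panels differ in range. The replicates lie closer together in HOS than in 143B, and PCNA is the highest HOS gene and MCM7 the highest 143B gene in NC.

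In 143B 7 of the 39 genes passed the test. MCM8 and RFC2 rose, and MCM2, GINS3, POLE, PCNA and CCNE2 fell, while 32 did not pass. In HOS 24 passed, with 12 higher and 12 lower in sgNAT10 as labelled. The share called was 17.9% in 143B, against 38.3% of all 11419 genes tested (12.9% higher and 25.4% lower), and 61.5% in HOS, against 68.5% of all 11957 (45.5% higher and 23.0% lower). With the replicate number added to the model as a block, 69.2% of the members were called in 143B, against 67.0% of all genes. In HOS these shares were 61.5% and 65.9%. The lower share in 143B was thus not seen with the block, and no label says what a replicate number marks. The median change of the members was -0.32 in 143B, beside -0.25 for all genes, and 0.013 in HOS, beside 0.19. The libraries of the groups did not overlap for 7 members higher and 16 lower in 143B, where 23.9% and 42.8% of all genes stood so apart (66.8% in either direction). In HOS they did not overlap for 13 higher and 17 lower, against 53.9% and 29.2% of all genes (83.1% in either direction). RNA from bulk cultures does not tell fewer cells in S phase from less RNA in each such cell.

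These splits depended on how the libraries were scaled, and so did those over all genes. As deposited, 1473 genes were called higher and 2897 lower in 143B, and 5444 and 2751 in HOS. Median-ratio scaling brings the median of all genes to -0.017 in 143B and -0.0079 in HOS. It called 2361 of all genes higher and 2541 lower in 143B, and 3762 and 4038 in HOS. The members then numbered 5 higher and 4 lower in 143B and 8 higher and 20 lower in HOS. Rescaled to a common sum, 896 and 3736 of all genes were called in 143B and 7075 and 1703 in HOS. The members numbered 1 and 11 in 143B and 19 and 6 in HOS. Quantile normalization called 2797 and 2847 of all genes in 143B and 3890 and 3806 in HOS. The members numbered 9 and 4 in 143B and 7 and 15 in HOS. Correction of each library for transcript length and GC content called 3023 and 3134 of all genes in 143B and 3744 and 3925 in HOS. The members then numbered 14 and 11 in 143B and 6 and 20 in HOS. Leaving out 1 library at a time changed the number of members called in both lines, and the number over all genes as well. In 143B the median change of the members then ranged from -0.32 to -0.19, beside -0.43 to -0.085 for all genes. In HOS it ranged from -0.050 to 0.029, beside 0.17 to 0.21 for all genes. No 143B call held under all 14 alternatives. Of the 24 HOS calls, 10 held in direction and past the threshold under all 15: MCM2, MCM4, MCM6, GINS1, RFC3, RFC4, RPA1, RPA3, UNG and RRM2.

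**Figure D2:**
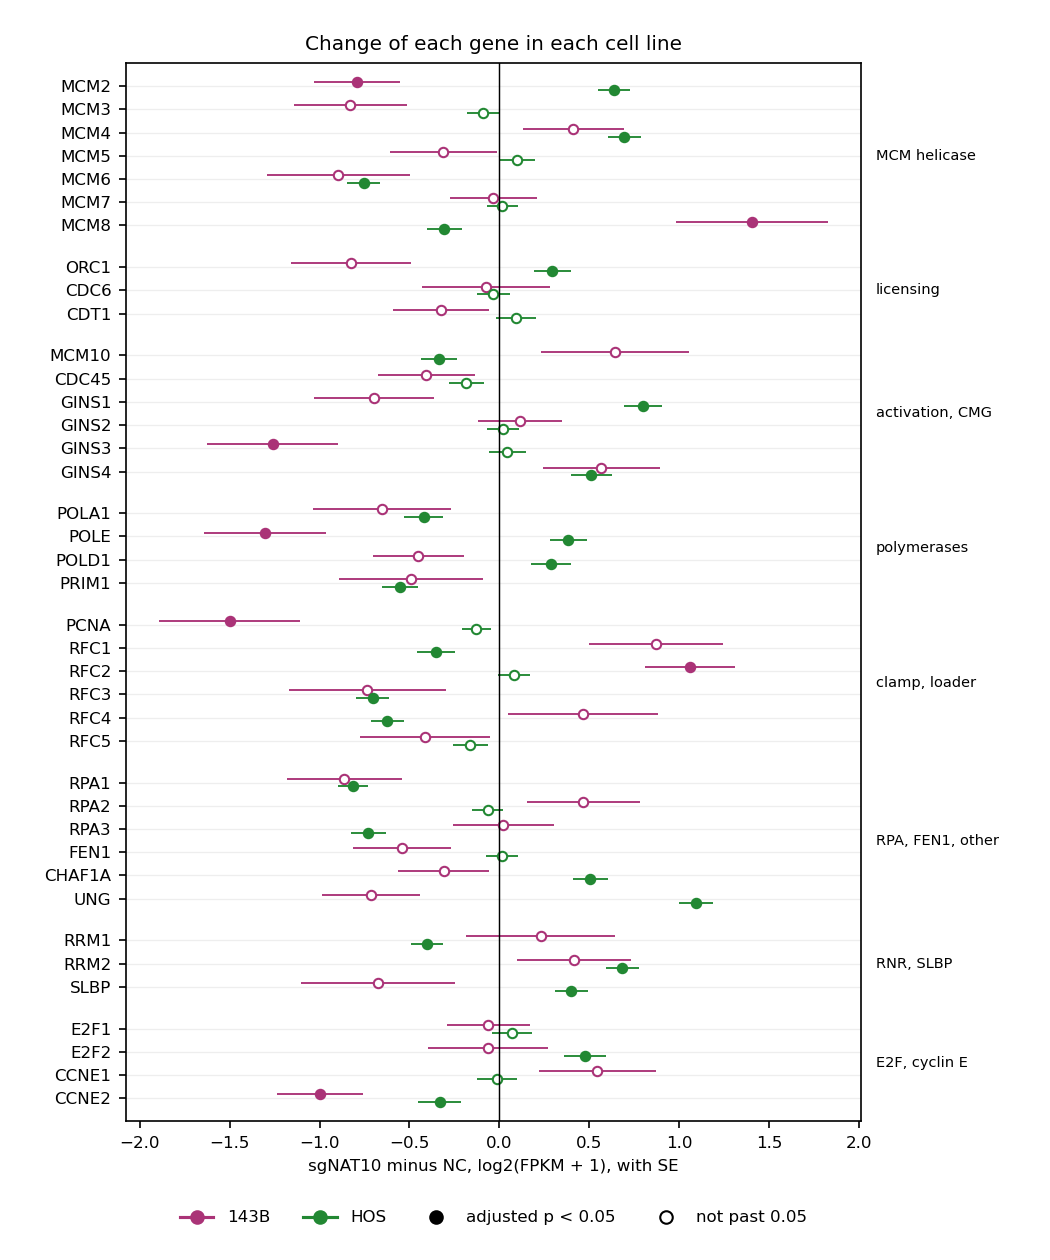
Change of each gene as sgNAT10 minus NC on the log2(FPKM + 1) scale, with its standard error, in 143B (purple) and HOS (green), grouped by role. Filled points passed an adjusted p of 0.05. The 143B errors are mostly wider, with a median standard error over the members of 0.325 against 0.0962 in HOS, and UNG, MCM2 and POLE lie on opposite sides of 0 in the lines, although POLE in HOS was below 0 after the length and GC correction.

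Subunits of the MCM helicase, the ring that unwinds DNA at the fork, moved in opposite directions in HOS. MCM2 stood at 40.48 and 43.55 FPKM in HOS NC and at 66.5 and 65.27 FPKM in HOS sgNAT10 (log2 0.64, SE 0.09, adjusted p = 1.03e-05). MCM4 stood at 37.03 and 34.04 FPKM in NC and at 58.4 and 57.72 FPKM in sgNAT10 (log2 0.69, adjusted p = 5.12e-06). MCM6 stood at 56.56 and 50.91 FPKM in NC and at 31.22 and 31.6 FPKM in sgNAT10 (log2 -0.75, adjusted p = 2.83e-06). For each of these subunits the groups did not overlap, with MCM2 and MCM4 higher and MCM6 lower in sgNAT10. The other ring subunits, MCM3, MCM5 and MCM7, did not pass the test in HOS, with changes from -0.090 to 0.098. MCM8, a relative of the ring subunits that acts in recombination, fell from 26.56 and 23.45 to 20.02 and 19.98 FPKM (log2 -0.31, adjusted p = 0.0115). Over the alternatives MCM2 ranged from 0.18, after the length and GC correction, to 0.85, and MCM4 from 0.34 to 0.90. The MCM8 call was lost when rescaled to a common sum and without either sgNAT10 library (adjusted p from 2.69e-05 to 0.39 over the alternatives).

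In 143B the ring subunits MCM4 and MCM6 stood on the same sides of 0 as in HOS, at 0.41 and -0.90, but neither passed the test. MCM2 fell in 143B, from 134.4 and 128.73 to 84.42 and 67.6 FPKM (log2 -0.79, SE 0.24, adjusted p = 0.0304). MCM8 rose from 2.66 and 7.11 to 13.4 and 13.44 FPKM (log2 1.40, SE 0.42, adjusted p = 0.0285), with a NC spread wider than that of sgNAT10. MCM3, MCM5 and MCM7 did not pass, at -0.83, -0.31 and -0.033. The MCM2 value became -0.00043 after the length and GC correction, and its call was also lost under median-ratio scaling, under quantile normalization and without NC replicate 1, sgNAT10 replicate 1 or sgNAT10 replicate 2. Adjusted p ranged from 1.58e-05 to 0.999. The MCM8 call was lost when rescaled to a common sum and without NC replicate 1 or either sgNAT10 library (adjusted p from 4.3e-10 to 0.132).

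The licensing factors showed 1 call in the lines together, where 38.3% of all genes were called in 143B and 68.5% in HOS. This was ORC1, an ATP-binding subunit of the origin recognition complex. ORC1 stood at 10.84 and 11.11 FPKM in HOS NC and at 14.19 and 13.19 FPKM in HOS sgNAT10 (log2 0.29, SE 0.10, adjusted p = 0.0172). The 143B levels of ORC1 were 9.28 and 12.34 FPKM in NC and 5.68 and 5.54 FPKM in sgNAT10, which do not overlap but did not pass (log2 -0.83, adjusted p = 0.0781). CDC6 and CDT1, which bring the helicase to the origin, did not pass in either line, and their libraries overlapped between groups. The HOS ORC1 call was lost under median-ratio and quantile scaling and without either sgNAT10 library, and its value was -0.016 after the length and GC correction. Adjusted p ranged from 0.000148 to 0.835.

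Among the factors that activate the helicase, 2 of the 4 GINS subunits rose in HOS and 1 fell in 143B. Over all genes, 45.5% rose in HOS and 25.4% fell in 143B. GINS1 stood at 7.15 and 6.36 FPKM in HOS NC and at 12.49 and 12.45 FPKM in HOS sgNAT10 (log2 0.80, SE 0.11, adjusted p = 6.36e-06). GINS4 rose in HOS from 5.12 and 6.26 to 8.63 and 8.36 FPKM (log2 0.51, adjusted p = 0.000843). GINS2 and GINS3 did not pass in HOS, at 0.020 and 0.044. In 143B GINS3 fell from 7.2 and 11.38 to 2.82 and 3.64 FPKM (log2 -1.26, SE 0.36, adjusted p = 0.025), with groups that do not overlap. GINS1 (-0.70), GINS2 (0.12) and GINS4 (0.57) did not pass in 143B. MCM10, which helps to open the helicase, fell in HOS from 16.66 and 15.37 to 12.53 and 12.39 FPKM (log2 -0.34, adjusted p = 0.00707), and stood at 0.64 in 143B without passing. CDC45, the partner of GINS in the active helicase, passed in neither line.

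The GINS1 rise in HOS ranged from 0.53 to 0.99 over the alternatives. The HOS GINS4 call was lost under quantile normalization and after the length and GC correction (adjusted p from 1.52e-06 to 0.0914), and that of MCM10 when rescaled to a common sum and without either sgNAT10 library (7.43e-05 to 0.261). The 143B GINS3 call was lost without NC replicate 2 and without either sgNAT10 library (6e-08 to 0.25).

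All 4 polymerase and primase genes passed in HOS, with 2 higher and 2 lower. Of all genes, 68.5% passed in HOS, 45.5% higher and 23.0% lower. POLE, the catalytic subunit of the leading-strand polymerase, rose from 10.67 and 11.47 to 15.25 and 14.21 FPKM (log2 0.38, SE 0.10, adjusted p = 0.00344). POLD1, the catalytic subunit of the lagging-strand polymerase, rose from 13.22 and 16.72 to 18.98 and 17.76 FPKM (log2 0.29, adjusted p = 0.0324). POLA1 and PRIM1, which with their partners make the primers, fell, POLA1 from 15.7 and 13.3 to 10.4 and 10.7 FPKM (log2 -0.42, adjusted p = 0.00243). PRIM1 fell from 40.26 and 33.88 to 24.97 and 24.76 FPKM (log2 -0.55, adjusted p = 0.000134). In 143B POLE fell from 6.7 and 8.55 to 2.71 and 2.26 FPKM (log2 -1.30, SE 0.34, adjusted p = 0.0163). POLA1 (-0.65), POLD1 (-0.45) and PRIM1 (-0.49) did not pass in 143B.

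The transcripts that rose in HOS had more GC (POLE 56.4%, POLD1 64.97%) than those that fell (POLA1 42.93%, PRIM1 40.06%). After the length and GC correction POLE was lower in HOS (log2 -0.32, adjusted p = 0.00116, the range over all alternatives being 1.2e-05 to 0.168), POLD1 stood at -0.14, and PRIM1 at -0.088 lost its call (adjusted p from 1.27e-06 to 0.261 over the alternatives). The POLE and POLD1 calls were also lost under median-ratio and quantile scaling and without sgNAT10 replicate 1, and that of POLD1 without NC replicate 1 and sgNAT10 replicate 2 (0.000158 to 0.595). The POLA1 call was lost when rescaled to a common sum and without sgNAT10 replicate 1 (3.45e-05 to 0.0767). In 143B the POLE value moved to -0.67 after the correction, and its call was lost without either sgNAT10 library (2.47e-08 to 0.218).

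PCNA, the sliding clamp, fell in 143B. Its levels were 53.13 and 95.26 FPKM in NC and 17.13 and 34.92 FPKM in sgNAT10 (log2 -1.50, SE 0.39, adjusted p = 0.0164). Replicate 2 was the higher in both groups, and the groups did not overlap. In HOS PCNA stood at 260.22 and 252.48 FPKM in NC and at 232.75 and 236.21 FPKM in sgNAT10 and did not pass (log2 -0.13, adjusted p = 0.164). Leaving out sgNAT10 replicate 1 ended the 143B call (adjusted p from 8.29e-16 to 0.0565 over the alternatives).

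Of the 5 clamp loader subunits, the difference between lines passed for RFC1 and RFC2, and did not for RFC3, RFC4 and RFC5. RFC2, a small subunit, rose in 143B from 70.77 and 65.73 to 123.46 and 166.38 FPKM (log2 1.06, SE 0.25, adjusted p = 0.0114) and stood at 0.083 in HOS without passing. RFC3 fell in HOS from 56.04 and 51.73 to 31.22 and 34.13 FPKM (log2 -0.70, adjusted p = 6.01e-06). RFC4 fell in HOS from 49.53 and 47.36 to 30.39 and 31.86 FPKM (log2 -0.62, adjusted p = 1.6e-05). RFC1, the large subunit, fell in HOS from 37.68 and 30.95 to 25.19 and 27.98 FPKM (log2 -0.35, adjusted p = 0.00749). In 143B RFC1 stood at 0.87, RFC3 at -0.73 and RFC4 at 0.46, none past the threshold, and RFC5 passed in neither line. Leaving out sgNAT10 replicate 2 ended the 143B RFC2 call (adjusted p from 5.93e-09 to 0.101). The HOS RFC1 call was lost when rescaled to a common sum and without sgNAT10 replicate 1 (9.55e-05 to 0.213), and the RFC3 value moved to -0.41 after the length and GC correction.

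Of the replication protein A subunits, which coat single-stranded DNA, RPA1 and RPA3 fell in HOS. RPA1, the large subunit, stood at 109.43 and 105.8 FPKM in NC and at 62.45 and 59.14 FPKM in sgNAT10 (log2 -0.81, SE 0.09, adjusted p = 6.13e-07). RPA3, the small subunit, stood at 35.02 and 33.48 FPKM in NC and at 19.49 and 21.1 FPKM in sgNAT10 (log2 -0.73, adjusted p = 5.23e-06). RPA2 stood at -0.065 and did not pass. In 143B none of these subunits passed, with RPA1 at -0.86, RPA2 at 0.47 and RPA3 at 0.021.

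UNG, which removes uracil from DNA, had the largest rise of the members in HOS. Its levels were 21.81 and 21.79 FPKM in NC and 48.97 and 46.31 FPKM in sgNAT10 (log2 1.09, SE 0.09, adjusted p = 6.25e-08), and ranged from 0.87 to 1.30 over the alternatives. In 143B UNG was at 28.47 and 36.39 FPKM in NC and at 17.74 and 20.81 FPKM in sgNAT10 without passing (log2 -0.72, adjusted p = 0.067). CHAF1A, a subunit of the factor that deposits histones behind the fork, rose in HOS from 18.86 and 20.05 to 28.9 and 27.18 FPKM (log2 0.51, adjusted p = 0.0002). Its value was 0.080 after the length and GC correction, where the call was lost (adjusted p from 6.1e-08 to 0.232). FEN1, which trims Okazaki fragments, passed in neither line.

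Ribonucleotide reductase, which makes deoxynucleotides, has a large subunit, RRM1, and a small subunit made in S phase, RRM2. RRM2 rose in HOS from 25.83 and 26.06 to 42.1 and 42.44 FPKM (log2 0.68, SE 0.09, adjusted p = 6.11e-06). RRM1 fell from 87.98 and 78.98 to 60.98 and 64.79 FPKM (log2 -0.40, adjusted p = 0.000874). SLBP, which binds the stem-loop of histone mRNAs, rose in HOS from 38.45 and 36.52 to 50.27 and 49.31 FPKM (log2 0.40, adjusted p = 0.000835). None of these 3 genes passed in 143B. The RRM1 call was lost when rescaled to a common sum (adjusted p from 5.8e-06 to 0.0597) and the SLBP call under median-ratio scaling (3.36e-07 to 0.11).

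CCNE2 passed the test in both lines and was lower in both. It stood at 1.91 and 2.73 FPKM in 143B NC and at 0.68 and 0.62 FPKM in 143B sgNAT10 (log2 -0.998, SE 0.24, adjusted p = 0.012). The HOS levels of CCNE2 were 7.74 and 6.15 FPKM in NC and 5.22 and 5.34 FPKM in sgNAT10 (log2 -0.33, SE 0.12, adjusted p = 0.0196). Cyclin E1, CCNE1, passed in neither line, at 0.54 in 143B and -0.012 in HOS. E2F2 rose in HOS from 3.19 and 3.44 to 5.38 and 4.64 FPKM (log2 0.48, adjusted p = 0.00145), and E2F1 passed in neither line, at -0.062 in 143B and 0.068 in HOS. MCM3, MCM6, CDC45, PCNA and RPA1 were also lower without overlap in both lines, and MCM4, GINS4 and RFC2 higher. Of all genes, 42.8% in 143B and 29.2% in HOS were lower without overlap, and 23.9% and 53.9% higher. The share of all genes placed alike in both lines, or called lower in both, was not computed. MCM6 and RPA1 passed in HOS alone. For neither did the difference between lines pass (-0.14, adjusted p = 0.81 for MCM6, and -0.048, adjusted p = 0.922 for RPA1).

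The 143B CCNE2 call was lost without either sgNAT10 library (adjusted p from 8.9e-07 to 0.176). The HOS CCNE2 call was lost when rescaled to a common sum, after the length and GC correction, without NC replicate 1 and without either sgNAT10 library (0.000334 to 0.346). The HOS E2F2 call was lost under quantile normalization and without sgNAT10 replicate 1, and its value was -0.13 after the length and GC correction (8.25e-06 to 0.177).

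The difference between the lines, the 143B change minus the HOS change, passed the test for 12 of the 39 genes (30.8%), against 49.1% of the 10655 genes tested in both. It was negative for 8 and positive for 4, where 36.2% and 12.9% of all genes were so called, with a median over the members of -0.23 beside -0.44 for all genes. UNG (-1.81, SE 0.27, adjusted p = 0.000732), MCM2 (-1.43, SE 0.24, adjusted p = 0.00137), POLE (-1.68, SE 0.29, adjusted p = 0.00144) and GINS1 (-1.50, SE 0.30, adjusted p = 0.00322) had the smallest adjusted p. MCM2 and POLE fell in 143B and rose in HOS, and MCM8 rose in 143B and fell in HOS. UNG and GINS1 were past the threshold for the difference under all 19 alternatives, with differences from -2.34 to -1.27 and from -1.99 to -0.89. After the length and GC correction MCM2 stood at -0.18 and POLE at -0.35, past the threshold in neither case. With median-ratio scaling the counts were 9 positive and 4 negative, beside 2662 and 2709 over all genes. Rescaled to a common sum they were 0 and 19, beside 625 and 5156. With the replicate number as a block they were 9 and 13, beside 2272 and 5086.

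A ratio between subunits within a library does not change when the whole library is multiplied by a factor, but can change with a correction for GC or length. The ratio was computed for 12 pairs chosen after their values were seen, and 2 libraries against 2 allow no exact permutation p below 0.33, so they are described without a test. MCM4:MCM6 was 3.36 and 2.51 in 143B NC and 8.56 and 6.84 in 143B sgNAT10, and 0.655 and 0.669 in HOS NC and 1.87 and 1.83 in HOS sgNAT10. The ratio of the means was 2.62 in 143B and 2.79 in HOS. RPA2:RPA1 was 0.904 and 0.822 in 143B NC and 2.14 and 2.36 in 143B sgNAT10, and 0.592 and 0.586 in HOS NC and 0.977 and 1.015 in HOS sgNAT10. The transcripts of RPA1 and RPA2 have nearly equal GC (48.25% and 48.06%) but differ in length (4340 and 1752 bases).

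GINS4:GINS3 was 1.13 and 0.981 in 143B NC and 6.05 and 3.45 in 143B sgNAT10, and 0.388 and 0.529 in HOS NC and 0.663 and 0.652 in HOS sgNAT10. These transcripts too have nearly equal GC (47.95% and 48.07%), with lengths of 3873 and 2274 bases. RFC2:RFC3 was 8.65 and 3.77 in 143B NC and 25.2 and 17.8 in 143B sgNAT10, and 0.87 and 0.972 in HOS NC and 1.65 and 1.57 in HOS sgNAT10. CCNE1:CCNE2 was 3.38 and 3.03 in 143B NC and 14.6 and 20.03 in 143B sgNAT10, and 0.966 and 1.09 in HOS NC and 1.29 and 1.38 in HOS sgNAT10. In these 5 ratios and in RFC1:RFC3 sgNAT10 was higher without overlap in both lines. The share of all gene pairs so placed was not computed, and swapping the genes of a pair would turn higher into lower. The other 6 of the 12 pairs overlapped in at least 1 line, and for 2 of them, POLE:POLA1 in 143B and E2F1:E2F2 in HOS, the mean ratio was lower in sgNAT10. E2F1:E2F2 in HOS was lower without overlap, at 4.97 and 5.81 in NC and 3.52 and 3.98 in sgNAT10. GC differed widely within CCNE1:CCNE2 (52.91% and 36.88%) and RFC2:RFC3 (53.63% and 39.05%). After the length and GC correction the change of CCNE1 minus that of CCNE2 went from 0.32 to -0.12 in HOS and from 1.54 to 2.19 in 143B. That of RFC2 minus RFC3 went from 0.79 to 0.36 in HOS and from 1.79 to 2.44 in 143B. That of GINS4 minus GINS3 went from 0.47 to 0.26 in HOS and from 1.83 to 1.915 in 143B. That of RFC1 minus RFC3 went from 0.35 to -0.041 in HOS and from 1.60 to 1.71 in 143B. For MCM4 minus MCM6 the difference went from 1.45 to 1.14 in HOS and from 1.31 to 1.66 in 143B. For RPA2 minus RPA1 it went from 0.75 to 1.11 in HOS and from 1.33 to 1.11 in 143B. RRM2:RRM1 was 0.294 and 0.33 in HOS NC and 0.69 and 0.655 in HOS sgNAT10, while the 143B groups overlapped.

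**Figure D3:**
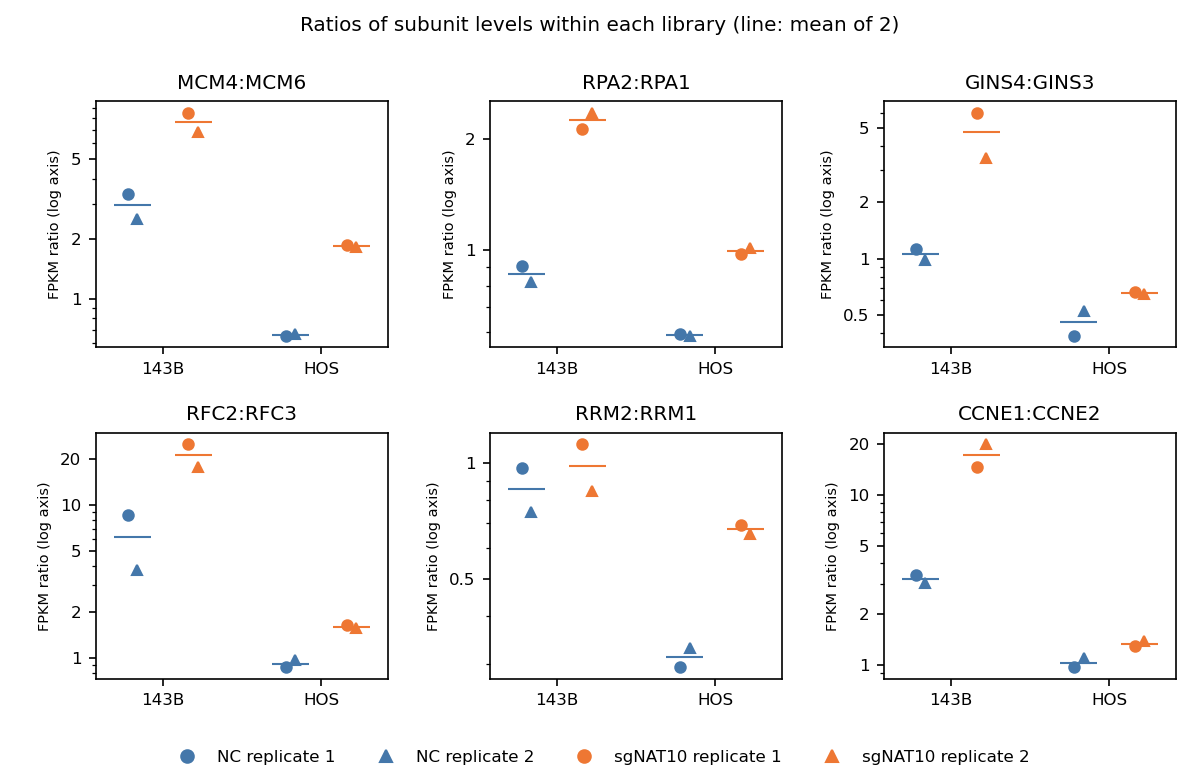
Ratio of the FPKM of 2 subunits or paralogs in each library, on a log axis, for 6 of the 12 pairs chosen after their values were seen. Circles and triangles are replicates 1 and 2, lines are means of 2, blue is NC and orange is sgNAT10. The sgNAT10 points lie above the NC points in both lines for all pairs but RRM2:RRM1, whose groups overlap in 143B.

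The changes of the members ran with transcript GC content in HOS. Across the 39 genes Spearman's rho between change and GC was 0.554 in HOS and -0.013 in 143B, and across all genes 0.303 in HOS and -0.397 in 143B. Points share their libraries, and rho is given as a description. Of the 19 members above their median GC of 48.25%, 9 rose and 0 fell in HOS, and of the 20 at or below it 3 rose and 12 fell. In 143B these counts were 1 and 2 of 19, and 1 and 3 of 20. Over all genes tested, 45.5% rose and 23.0% fell in HOS, and 12.9% and 25.4% in 143B. The shares of all genes above and below a GC cut were not computed. After the length and GC correction the members of high GC stood higher in 143B, MCM7 at 0.74, E2F1 at 0.74 and CDT1 at 0.55, each past the threshold, and lower in HOS, at -0.38, -0.24 and -0.30, also past it. Of these 3 genes, none passed on the values as deposited. Rescaled to a common sum all 3 were higher in HOS, as were CDT1 and E2F1 without NC replicate 2, and MCM7 was lower in HOS under median-ratio scaling.

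**Figure D4:**
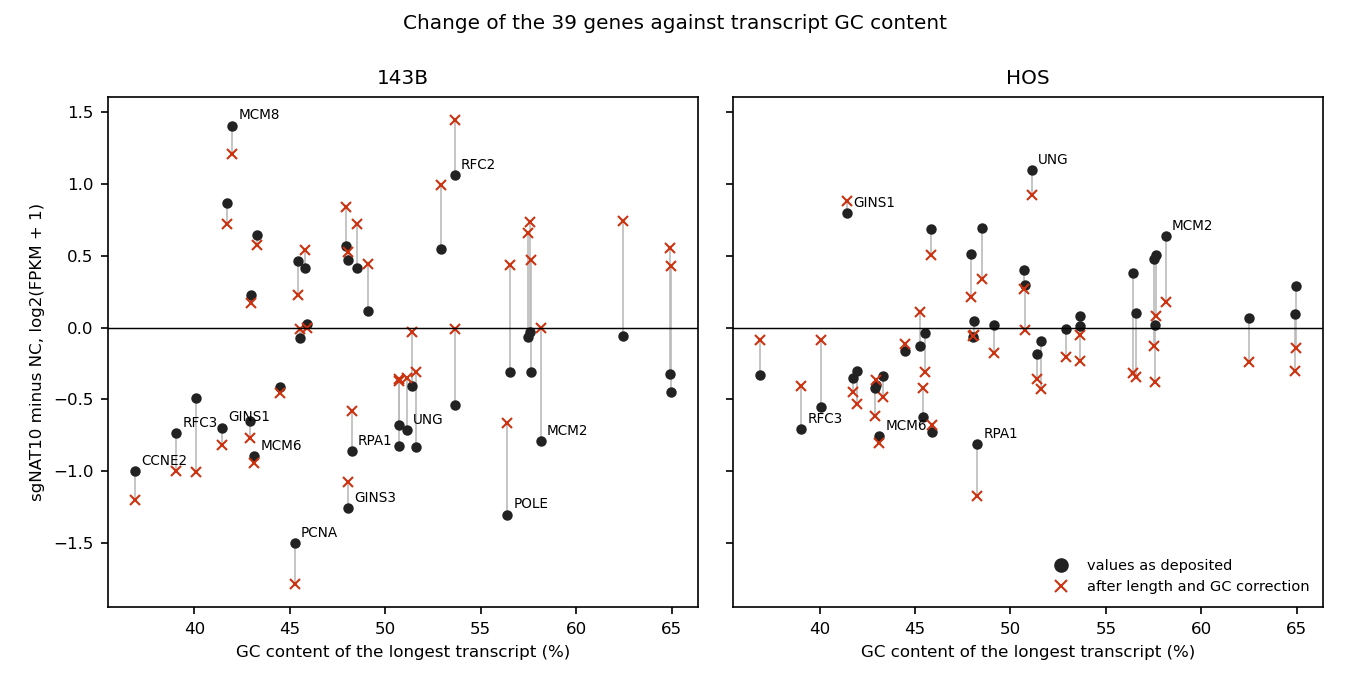
Change of each of the 39 genes (sgNAT10 minus NC, log2) against the GC content of its longest transcript, in percent, for each line. Dots are values as deposited and crosses the values after correction for transcript length and GC content, joined by a grey line. The correction lifts genes of high GC in 143B and lowers them in HOS, while UNG, GINS1, MCM6 and RPA1 stay on the same side of 0 in HOS.

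Replication and G1/S genes outside the members were read from lists. Of other replication fork and licensing genes, 1 rose and 5 fell of 37 in 143B (median -0.18), and 8 rose and 14 fell of 38 in HOS (median -0.0050). Under median-ratio scaling the HOS counts were 3 and 19, and rescaled to a common sum 19 and 9. Of other E2F-linked G1/S genes and regulators, 4 rose and 6 fell of 23 in 143B (median -0.61), and 13 rose and 2 fell of 25 in HOS (median 0.27). Under median-ratio scaling these counts were 6 and 8 in 143B and 9 and 6 in HOS, and rescaled to a common sum 1 and 7 in 143B and 17 and 0 in HOS. The share called was 16.2% for the first list and 43.5% for the second in 143B, beside 38.3% of all genes, and 57.9% and 60.0% in HOS, beside 68.5%. ASF1B, a histone chaperone of S phase, fell in 143B from 50.94 and 52.9 to 12.01 and 9.49 FPKM (log2 -2.18, adjusted p = 0.00133) and rose in HOS (log2 0.44, adjusted p = 0.00144). TYMS, thymidylate synthase, fell in 143B from 108.17 and 177.91 to 28.66 and 52.11 FPKM (log2 -1.82, adjusted p = 0.00507) and rose in HOS from 188.06 and 210.81 to 293.12 and 300.06 FPKM (log2 0.57, adjusted p = 1.82e-05). E2F4 (-1.65 and 0.44), the maintenance methyltransferase DNMT1 (-1.35 and 0.56), the MCM-binding protein MCMBP (-1.39 and 0.61) and the fork protein TIMELESS (-1.01 and 0.31) also fell in 143B and rose in HOS. MTBP fell in both (-1.07 and -0.34), and FBXW7, which marks cyclin E for destruction, rose in both (1.44 and 0.77). TYMS passed in both lines under all alternatives. After the length and GC correction the HOS value was -0.043 for DNMT1 and -0.23 for TIMELESS. The calls of ASF1B and E2F4 in HOS were lost under median-ratio scaling, and those of TIMELESS in both lines under median-ratio and quantile scaling. TIMELESS in HOS also lost its call without either sgNAT10 library. The HOS call of MTBP was lost when rescaled to a common sum, after the length and GC correction (-0.052), without NC replicate 1 and without sgNAT10 replicate 1 (adjusted p from 0.000422 to 0.589 over the alternatives), and its 143B call with the larger pseudocount. In 143B, leaving out sgNAT10 replicate 1 ended the calls of MCMBP, MTBP and TIMELESS, leaving out NC replicate 2 those of MCMBP and TIMELESS, and leaving out sgNAT10 replicate 2 those of MTBP, TIMELESS and FBXW7.

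In a list of mitosis and G2/M genes 2 rose and 6 fell of 32 in 143B, and 6 rose and 22 fell of 32 in HOS. The share called was 25.0% in 143B, beside 38.3% of all genes, and 87.5% in HOS, beside 68.5%. The 143B counts became 4 and 3 under median-ratio scaling and 6 and 5 under quantile normalization, and the HOS counts 8 and 16 when rescaled to a common sum. The median change in HOS was -0.42 for that list and 0.013 for the 39 members. TOP2A, topoisomerase II alpha, rose in 143B from 13.11 and 24.12 to 45.44 and 62.21 FPKM (log2 1.52, adjusted p = 0.00842) and fell in HOS from 120.25 and 102.61 to 58.34 and 61.53 FPKM (log2 -0.88, adjusted p = 6.87e-07). CENPE went the same way (1.29 and -0.91), and CCNB2 (-1.78 and -0.31) and MAD2L1 (-1.60 and -0.42) fell in both lines. TOP2A passed in both lines under all alternatives. The 143B call of CENPE was lost when rescaled to a common sum and without NC replicate 1 or either sgNAT10 library, that of MAD2L1 without sgNAT10 replicate 1, and the HOS call of CCNB2 when rescaled to a common sum, under quantile normalization and without sgNAT10 replicate 1.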

How the data were processed

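The authors deposited 1 table of FPKM values for each cell line, per the file headers, with 1 column per library. Bowtie2, RSEM and DESeq2 are tools listed, with no version or role, in the submitters' processing notes, which give GRCh38 as the build. Of the annotation, nothing is given in the sources used here. FPKM are relative within a library, so a few abundant genes can shift the rest, and the tables hold no counts for a count model.

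A gene was kept in a line if 2 or more of its 4 libraries reached 1 FPKM, and was tested on log2(FPKM + 1) with limma 3.58.1 in R 4.3.3, with an intensity trend, two-sided, and p adjusted over all genes of the line. A joint model of the 4 groups gave the difference between lines. The scripts were tested on simulated data. Depth is unknown, so no counting interval is given. Transcript length and GC are those of the longest transcript in GENCODE's basic set for GRCh38, matched for 98.3% of the genes tested in 143B and 98.5% in HOS. Genes named are the 39 members, NAT10 and, in each other list, up to 4 genes past the threshold in both lines, by the smallest larger adjusted p; RUNX2 and LYZ were named after their values were seen. Members and lists were chosen with earlier results of these data known. Alternatives were other pseudocounts, filters and scalings, a correction with a natural spline of 4 degrees of freedom for length and for GC, a replicate block, and leaving out each library, where the lone library left in a group is assumed to vary like the others. A crossed block and the correction combined with the block were chosen after seeing the data.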

Additional observations from a re-analysis of the deposited data

Results flagged for a closer look

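For 12 of the 39 genes (30.8%) the change in 143B differed from the change in HOS. The test was that of the difference in the joint limma model, with Benjamini-Hochberg adjusted p over 10655 genes. Of all these genes 49.1% passed it, 36.2% with a negative and 12.9% with a positive difference. The values are the 143B change minus the HOS change on the log2(FPKM + 1) scale, from 2 libraries a group. The difference was -1.81 for UNG (adjusted p = 0.000732), -1.68 for POLE (0.00144), -1.50 for GINS1 (0.00322) and -1.43 for MCM2 (0.00137). It was -1.37 for PCNA (0.0396), -1.30 for GINS3 (0.0117), -1.12 for ORC1 (0.0105) and -0.82 for CHAF1A (0.0239). It was 1.71 for MCM8 (0.0133), 1.22 for RFC1 (0.0245), 0.98 for RFC2 (0.0126) and 0.75 for RPA3 (0.0445). The differences of UNG and GINS1 stayed past the threshold under all 19 alternatives, and each of the other 10 lost its call under at least 1.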

How the results depend on the processing

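Over the 39 genes and 3 comparisons the alternatives gave 1866 values. Of these, 177 passed the threshold newly, 104 no longer passed and 54 changed sign with a call on either side. The other 1531 stayed on the same side of the threshold. Among them, direction was not checked for values that passed neither before nor after. CDC6 in 143B, at -0.074, for example stood at 0.19 under median-ratio scaling. Counts over all genes shifted too, both under the same scalings, as given above, and without 1 library. In 143B the main counts of members were 2 higher and 5 lower. They became 1 and 11 when rescaled to a common sum, 5 higher under median-ratio scaling, 9 higher under quantile normalization and 14 and 11 after the length and GC correction, and ranged from 0 to 5 and from 0 to 13 without 1 library. In HOS, from 12 and 12, they became 19 and 6 when rescaled to a common sum, 20 lower under median-ratio scaling, 7 higher under quantile normalization and 6 and 20 after the correction, and ranged from 8 to 15 and from 7 to 13 without 1 library. For the difference between lines, from 4 positive and 8 negative, they became 0 and 19 when rescaled to a common sum, 9 and 4 under median-ratio scaling, 8 positive under quantile normalization and 16 positive after the correction, and ranged from 1 to 7 and from 4 to 13 without 1 library. Same-numbered libraries deviated together in 143B (r across genes 0.605) and not in HOS (r = -0.106), with 2 pairs a line and no label on what a number marks. With the replicate number as a block the counts were 10 and 17 in 143B, 12 and 12 in HOS and 9 and 13 for the difference, and with the HOS numbers crossed 9 and 14 for the difference. In 143B the block called 69.2% of the members and 67.0% of all genes, so the lower share of members called without it was not seen with it. MCM6, RPA1, RFC1, RRM2, SLBP and UNG were among those called in 143B with the block and not without it. The correction together with the block gave 17 and 12 in 143B, 6 and 20 in HOS and 20 positive for the difference.

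After the length and GC correction, with or without the block, the 143B change became 0.74 for MCM7, 0.55 for CDT1, 0.47 for CHAF1A, 0.74 for E2F1 and 0.66 for E2F2, and with the block MCM5 (0.43) and POLD1 (0.43) also passed with a changed sign. In HOS it became -0.35 for MCM5, -0.38 for MCM7, -0.016 for ORC1, -0.30 for CDT1, -0.18 for GINS2, -0.32 for POLE, -0.14 for POLD1, -0.24 for FEN1, -0.24 for E2F1, -0.13 for E2F2, -0.079 for NAT10, -0.23 for TIMELESS and -0.043 for DNMT1. Median-ratio scaling gave -0.21 for MCM7 and -0.21 for FEN1 in HOS. The difference between lines became 0.38 for MCM4, 0.78 for MCM5, 1.11 for MCM7, 0.86 for CDT1, 0.57 for POLD1, -0.92 for PRIM1, 0.59 for RPA1, 0.39 for CHAF1A, 0.98 for E2F1 and 0.79 for E2F2. The cause was not tested. Read depth is unknown, and 2 libraries a group limit the precision.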
